A study of Mus musculus with 21 samples.

Results

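Forkhead genes encode transcription factors named by the letters of their subfamily, from Foxa to Foxs. The set described here holds every gene symbol in the count tables made of Fox, 1 letter from a to s and a number, with 1 such symbol left out by the rule. It has 43 genes of the 48321 symbols listed. Of these, 28 passed the filter on low counts and were tested among 14311 genes, and 15 were not tested. The naming rule uses no measured value, but a gene passes the filter more easily where 1 line raises it, so the tested genes are not a neutral sample of the family.

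Forkhead factors bind DNA through a winged-helix domain shared by the whole family, and several can bind sites in closed chromatin and open them for other factors. In the early embryo, FOXA factors act in endoderm and the axial midline, FOXF and FOXC factors in lateral and paraxial mesoderm, and FOXD3 in pluripotent epiblast and later in neural crest. FOXO factors are held out of the nucleus by insulin and AKT signalling, and FOXM1 drives genes of mitosis.

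RNA was sequenced from embryoid bodies, aggregates grown from mouse embryonic stem cells of the line A2loxCre (strain label C57BL/6), after 3 days of differentiation. TWIST1, a basic helix-loop-helix factor that pairs with itself or with an E-protein, was supplied in several forms from a coding sequence placed behind a doxycycline-inducible promoter, with induction for 16 h. The 7 groups had 3 libraries each. The parental A2loxCre line carried no integrated TWIST1 sequence and was given doxycycline. A line with integrated Twist1 monomer was sampled without doxycycline and with it. Lines with an integrated Twist1 homodimer, Twist1-Tcf3 dimer, Twist1-Tcf4 dimer or Twist1-Tcf12 dimer were all given doxycycline. The uninduced monomer samples therefore differed from the parental samples in both the line and the drug. The labels give 1 line per construct and do not say whether a line is a single clone or whether the 3 libraries of a group are separate cultures. The p-values thus measure only the spread between these libraries, and an effect of the construct and a property of its line cannot be told apart. The samples are mixed tissue, so fewer cells of a type and less RNA per cell cannot be told apart either.

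Total counts ran from 6648842 to 15999693 per library. Twist1 was at 8.10 CPM in parental libraries and 5.07 in the uninduced monomer libraries. CPM are counts scaled to a common library total after correction by TMM factors. Twist1 was at 612.2 CPM in the induced monomer, 182.0 in the homodimer and between 39.4 and 55.1 in the 3 E-protein dimer groups. The lines thus differed in Twist1 RNA, and the protein was not measured. Tcf4 was raised in its own dimer line, at 329.9 CPM against a parental 47.5. Tcf3 was not raised in the libraries labelled TCF3 dimer (154.0 against 167.0), and Tcf12 was as high there (104.2) as in libraries with the TCF12 dimer label (mean 92.9, SD 34.8, n = 3), so both are called by their labels throughout. Tcf12 was at 53.1, 117.6 and 108.1 CPM in TCF12-labelled libraries 1, 2 and 3. It was also at 90.3 in the TCF4 dimer line, against a parental 66.0, so its level does not tell the E-protein dimer groups apart. Library 1 labelled TCF12 dimer stood apart. Its counts differed from those of its fellows with a chi-square per degree of freedom of 85.92 and 105.3, against at most 3.803 for pairs that involve neither it nor library 1 of the uninduced monomer libraries (35.46 and 39.74). Long genes were low in it (Spearman rho of its deviation from the mean of its fellows with gene length -0.67 over 8949 genes). In the other groups this rho ran from -0.42 to 0.47. Leaving it out lowered the common biological coefficient of variation from 0.1197 to 0.05393, so counts of called genes in a comparison are given with and without it. The pluripotency factor gene Pou5f1 was at 395.6 CPM or more and the epiblast gene Otx2 at 152 or more in all 21 libraries.

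By level per kilobase of exon, the tested forkhead genes of these embryoid bodies spread over a wide range, with Foxp2 lowest at a mean of 0.0783 CPM per kb. Averaged over the 21 libraries, Foxo4 was first with 28.7 CPM per kb (SD 4.97), followed by Foxd3 with 22.5 (SD 3.74), Foxk2 with 20.2 (SD 2.63), Foxm1 with 16.6 (SD 1.67) and Foxp4 with 15.0 (SD 1.61). Foxd3 and Foxk2, and likewise Foxm1 and Foxp4, were less than their SD apart, whereas the steps from Foxo4 to Foxd3 and from Foxk2 to Foxm1 exceeded it. Foxi3 followed with 13.0, Foxo3 with 11.9, Foxk1 with 5.99, Foxn2 with 5.76, Foxo1 with 5.09, Foxj3 with 3.81 and Foxp1 with 3.60 CPM per kb. Foxa2 averaged 3.38 CPM per kb, but with an SD of 2.59, since its level depended on the line. The other 15 tested genes averaged 2.16 CPM per kb or less, and 10 of the 28 had no group mean above 5 CPM. Group means differed by less than 1.5 times for 8 tested genes, which were Foxk2, Foxm1, Foxp4, Foxo3, Foxk1, Foxn2, Foxj3 and Foxj2.

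**Figure D1:**
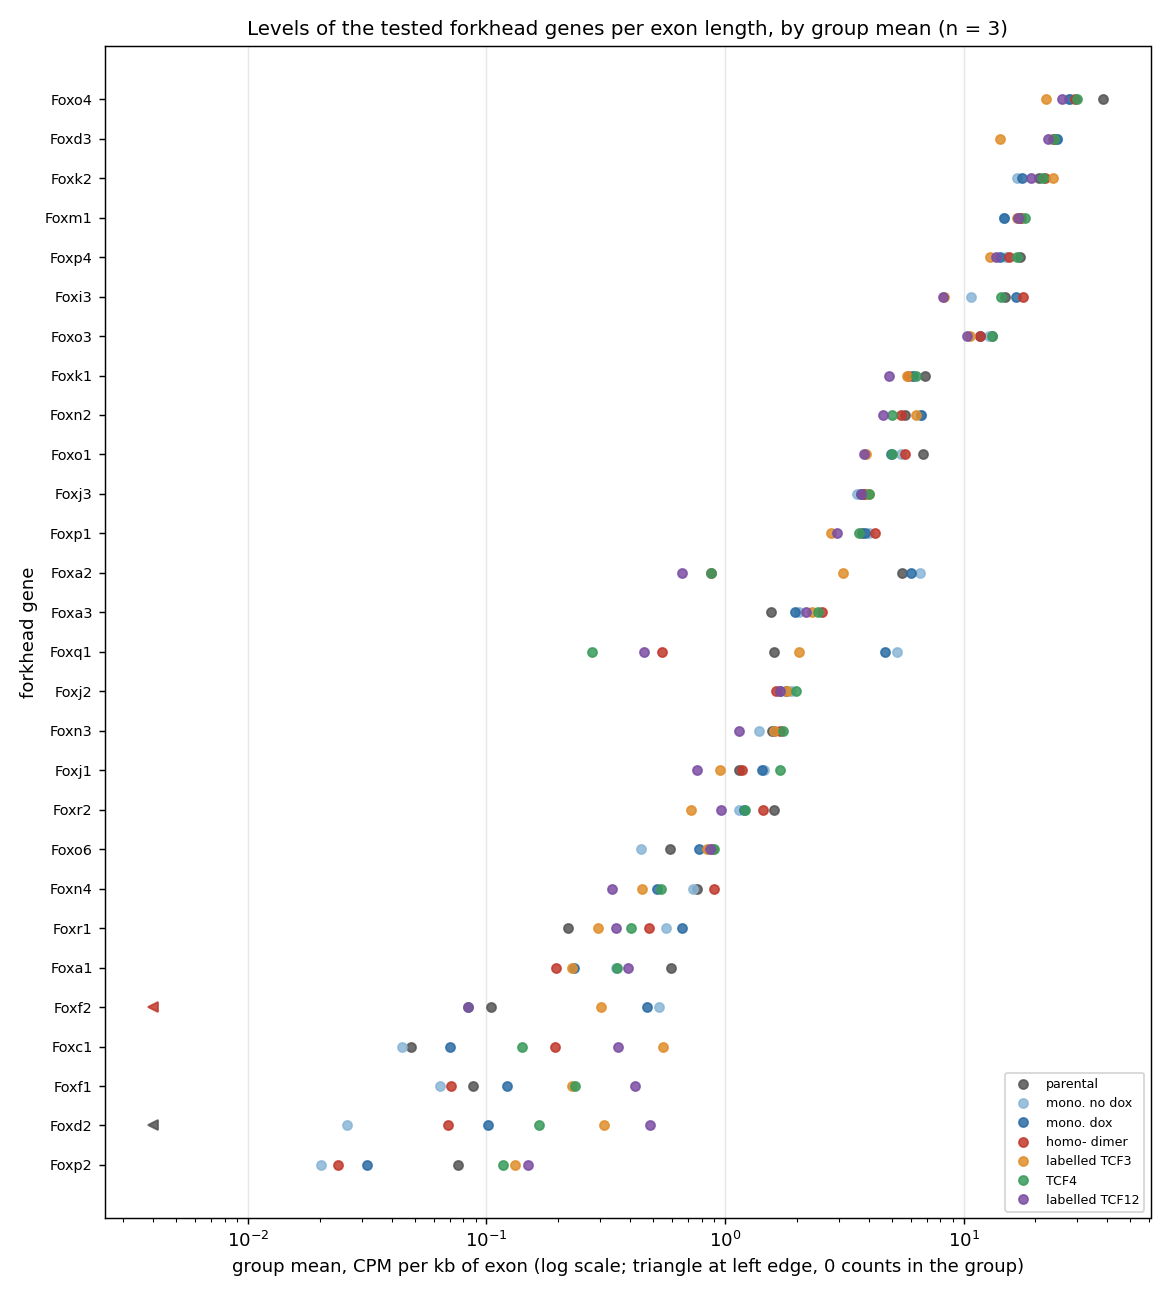
Group mean level of each of the 28 tested forkhead genes in CPM per kb of exon on a log axis, 1 point per group of 3 libraries; genes are ordered by their mean over all 21 libraries, and triangles at the left edge, which can overlap, mark groups with 0 counts. Foxo4, Foxd3 and Foxk2 lie furthest to the right, while Foxa2, Foxq1, Foxf2, Foxc1 and Foxd2 have group means spread over about a decade or more.

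Several forkhead genes sit beside each other in the genome (GRCm38, GENCODE M21). On chromosome 13, Foxq1 lies 64.84 kb before Foxf2, and Foxf2 175.2 kb before Foxc1, all on the plus strand. On chromosome 4, Foxd2 and Foxe3 are 16.27 kb apart, and on chromosome 8, Foxf1, Foxc2 and Foxl1 follow each other with gaps of 28.03 and 9.045 kb. TWIST1 and E-proteins bind E-boxes, with the letters CANNTG, which read the same on both strands. RefSeq promoter entries (GRCm38.p6) exist for 28 of the 43 genes, in 33 windows of 250 bases before a start site. An E-box was found in 20 of these 33 windows, in 17 of 28 genes, against 66.2% of all 32851 windows. CAGATG on either strand, which is 1 form of CANNTG, was in 1 of the 33 (14.4% of all windows), CATATG in 0 (3.46%), CAGCTG in 4 (13% of all windows), and a pair of E-boxes 5 bases apart (CANNTGNNNNNCANNTG) in 0 (0.639%). The windows upstream of 4 of the genes with wide differences between the lines are shown, since the dimers are E-box binding factors. Foxq1 and Foxp2 have no entry. Foxa2 has 3 windows, of which the farthest upstream is shown. Capitals mark E-boxes. They lie at chr2:148046970-148047219 (minus strand, Foxa2), chr13:31625566-31625815 (plus strand, Foxf2), chr13:31806396-31806632 (plus strand, Foxc1) and chr4:114908899-114909148 (minus strand, Foxd2), each ending before the annotated transcript.
Foxa2: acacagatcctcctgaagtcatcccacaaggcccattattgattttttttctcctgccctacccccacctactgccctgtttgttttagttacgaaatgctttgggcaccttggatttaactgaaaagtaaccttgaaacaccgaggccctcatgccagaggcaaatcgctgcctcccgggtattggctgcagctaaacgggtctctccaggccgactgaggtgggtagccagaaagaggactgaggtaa
Foxf2: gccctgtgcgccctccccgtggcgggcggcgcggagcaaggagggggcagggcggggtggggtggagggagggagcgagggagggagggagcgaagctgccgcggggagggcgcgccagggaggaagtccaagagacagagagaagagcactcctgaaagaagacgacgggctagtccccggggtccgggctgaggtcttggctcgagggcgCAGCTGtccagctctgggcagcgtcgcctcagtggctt
Foxc1: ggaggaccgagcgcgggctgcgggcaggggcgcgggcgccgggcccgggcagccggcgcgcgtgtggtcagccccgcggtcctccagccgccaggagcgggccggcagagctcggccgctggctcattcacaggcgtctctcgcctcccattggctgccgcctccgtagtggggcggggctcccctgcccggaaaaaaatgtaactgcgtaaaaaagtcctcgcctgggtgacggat
Foxd2: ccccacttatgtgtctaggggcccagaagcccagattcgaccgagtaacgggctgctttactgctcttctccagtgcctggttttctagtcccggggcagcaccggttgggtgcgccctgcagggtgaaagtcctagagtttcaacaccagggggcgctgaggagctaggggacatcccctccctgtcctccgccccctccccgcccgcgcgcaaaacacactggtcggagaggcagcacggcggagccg
Of these 4 windows only that of Foxf2 holds an E-box, which is CAGCTG. Of the other 2 windows of Foxa2, 1 holds an E-box. These letters say nothing of binding, and E-boxes farther away were not searched.

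Differences between groups were tested with edgeR's quasi-likelihood test on all 21 libraries, and a gene was called at an adjusted p under 0.05. Among the 28 tested forkhead genes, Foxa3, Foxj2, Foxj3, Foxk1, Foxn3, Foxo3 and Foxo6 were called in none of 13 comparisons. When library 1 labelled TCF12 dimer was left out, Foxk1 was called against the parental line in 4 comparisons and Foxa3 and Foxo3 in 3 each, and Foxj3 was called in the TCF12-labelled libraries against the induced monomer. Against the parental line, 5 were called in the uninduced monomer libraries (19.9% of all tested genes were) and 8 in the induced monomer libraries (background 20.0%). The homodimer had 7 (background 8.84%), the TCF3-labelled libraries 13 (28.4%), the TCF4 dimer line 6 (12.9%) and the TCF12-labelled libraries 13 (27.0%). All of these comparisons share the 3 parental libraries. Without library 1 labelled TCF12 dimer, 29 forkhead genes were tested, and 14, 15, 12, 20, 9 and 12 were called in these 6 comparisons, in the same order, against backgrounds of 36.8%, 35.2%, 20.4%, 46.5%, 28.0% and 30.3%. The counts rested on other libraries too. Without parental library 2 they were 5 for the induced monomer, 4 for the homodimer and 3 for the TCF4 dimer line, and without parental library 3 or TCF4 dimer library 2 the last was also 3. Without parental library 3, 7 were called in the TCF12-labelled libraries. The share of all genes called in these fits without a parental or TCF4 dimer library is not given here. The median log2 fold change of the 28 genes against the parental line lay between -0.10 and 0.02 in 5 groups, where all genes had 0.00 to 0.01. It was -0.31 in the TCF12-labelled libraries against 0.02 for all genes. That last median includes library 1 labelled TCF12 dimer, in which long genes were low. The median without it is not given here, so a shift of the family cannot be told apart from that library.

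Within the monomer line, doxycycline called 0 of the 28 genes in edgeR (2.00% of all tested genes were called), while 2 had an unadjusted p under 0.05 and DESeq2 called 0 (2.47% of all genes). Without library 1 labelled TCF12 dimer, 1 of 29 was called (6.17% of all genes). Against the induced monomer libraries, the homodimer had 5 called genes (18.5% of all), the TCF3-labelled libraries 10 (22.1%), the TCF4 dimer line 7 (27.5%) and the TCF12-labelled libraries 12 (33.5%). The 3 E-protein dimer groups together differed from the homodimer in 8 genes (14.0%), and among themselves in 12 (26.0%). Without the divergent library these 6 counts were 9 (33.3%), 14 (40.9%), 10 (45.5%), 14 (42.4%), 11 (28.9%) and 15 (40.1%). Without induced monomer library 3 the homodimer count was 3, and without TCF4 dimer library 3 the count among the E-protein dimers was 7. For these last fits the share of all genes called is not given here. The median log2 fold change against the induced monomer was 0.03 in the homodimer, -0.11 in the TCF3-labelled, 0.12 in the TCF4 and -0.15 in the TCF12-labelled libraries, where all genes had between -0.02 and 0.05. The TCF12-labelled median again includes the divergent library, and the value without it is not given here.

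**Figure D2:**
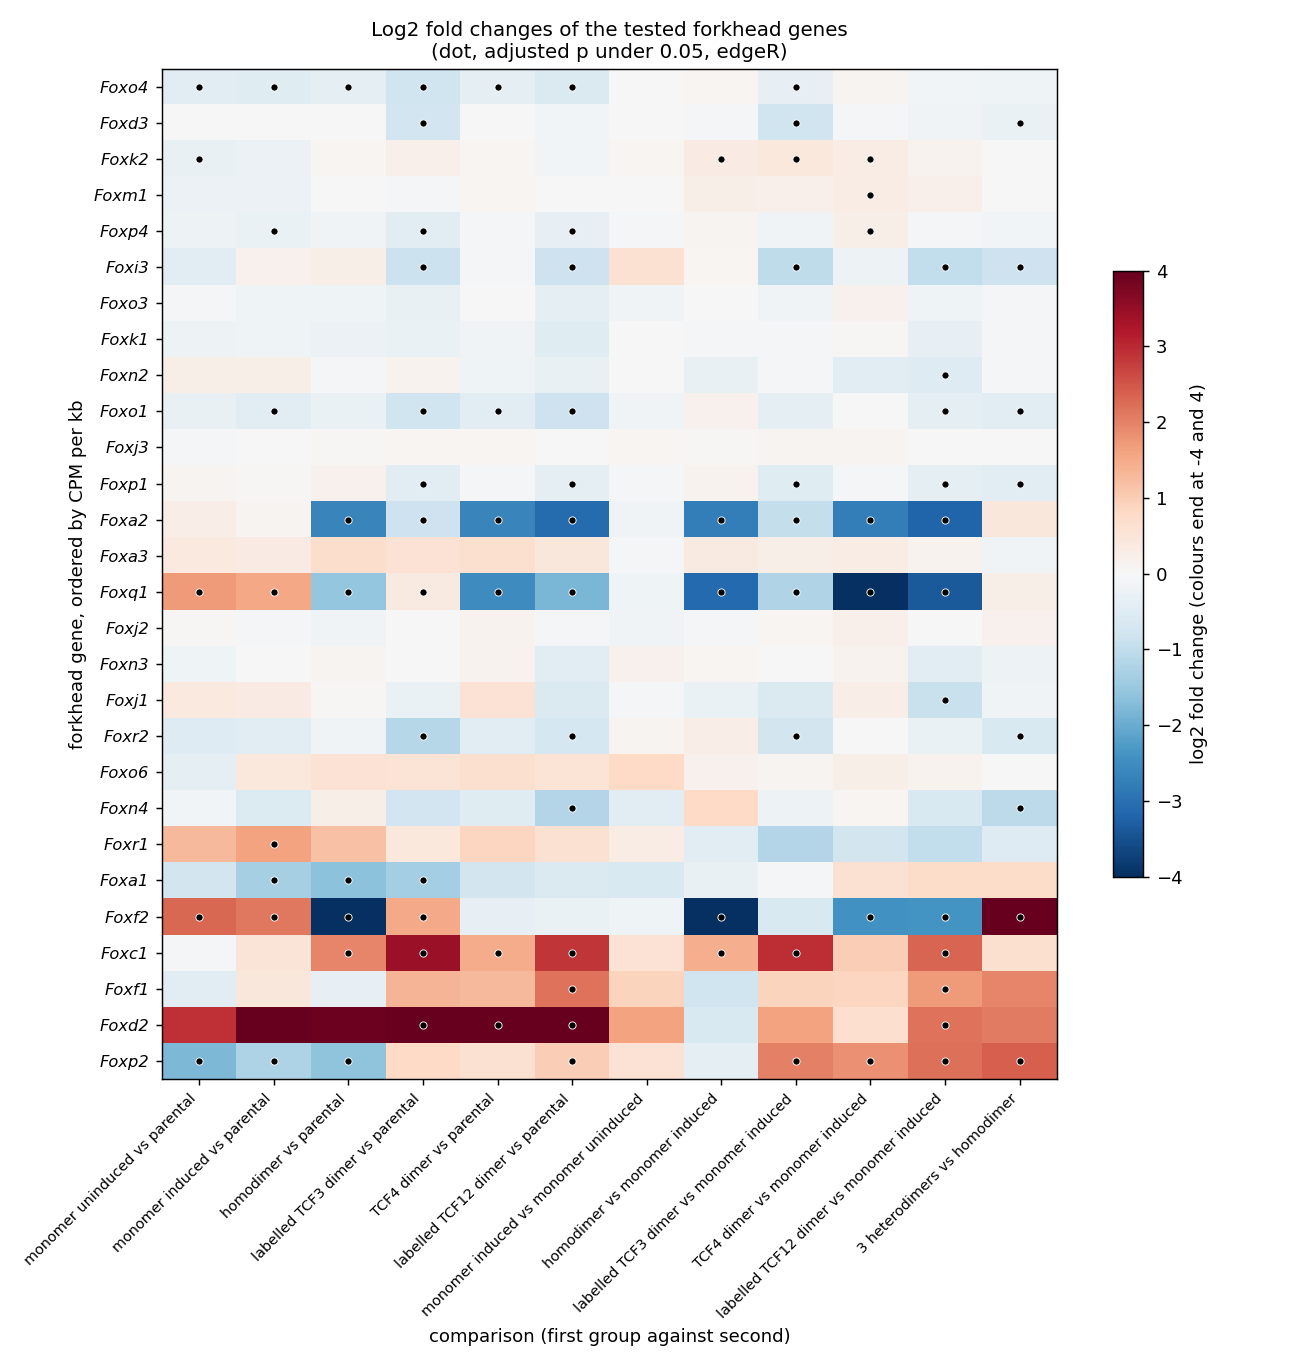
Log2 fold change (edgeR) of the 28 tested forkhead genes in 12 comparisons, red higher and blue lower in the first-named group, with colours ending at -4 and 4; dots mark an adjusted p under 0.05. The largest values belong to Foxa2, Foxq1, Foxf2, Foxc1, Foxd2 and Foxp2; those of Foxd2 against the parental line and of Foxf2 in the homodimer come from groups with 0 counts and depend on the count that edgeR adds.

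The FOXA genes encode pioneer factors that prepare endoderm and liver genes for activation. Foxa2, needed for the node, notochord and endoderm, fell in all 4 dimer groups and was not called in the monomer line. In libraries 1, 2 and 3 it was at 14.9, 13.4 and 11.1 CPM in parental libraries, at 14.6, 17.5 and 14.7 in uninduced and at 11.3, 13.04 and 18.4 in induced monomer libraries. It was at 2.37, 2.42 and 1.44 CPM in the homodimer, 6.27, 8.99 and 6.90 in the TCF3-labelled, 1.49, 2.22 and 2.49 in the TCF4 and 1.99, 1.47 and 1.21 in the TCF12-labelled libraries. Every dimer library lay below every parental and monomer library, and the TCF3-labelled libraries lay between them and the other dimers. Against the parental line the log2 fold change was -2.65 ± 0.24 (SE) in the homodimer (edgeR adjusted p 3.67e-07), -0.83 ± 0.20 in the TCF3-labelled (0.00378), -2.64 ± 0.23 in the TCF4 (1.63e-07) and -3.09 ± 0.25 in the TCF12-labelled libraries (3.63e-08). Against the induced monomer the values were -2.77 ± 0.24 (edgeR adjusted p 1.08e-07), -0.95 ± 0.20 (0.00176), -2.76 ± 0.23 (3.58e-08) and -3.21 ± 0.25 (1.29e-08). Without library 1 the TCF12-labelled values were -3.28 and -3.39. The 3 E-protein dimer groups differed among themselves (edgeR adjusted p 2.95e-06).

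Foxa1, a close relative with overlapping roles in endoderm, was low throughout. It was at 1.63, 2.71 and 1.61 CPM in the parental libraries, at 0.975, 1.04 and 1.46 in uninduced and 0.682, 0.899 and 0.751 in induced monomer libraries. The homodimer had 0.647, 0.179 and 1.13 and the TCF3-labelled libraries 0.743, 0.882 and 0.650, while the TCF4 libraries had 1.18, 0.940 and 1.40 and the TCF12-labelled 1.15, 1.23 and 1.53. All libraries of the other lines lay below the parental ones. The difference was called in 3 of them: -1.33 ± 0.37 in the induced monomer (edgeR adjusted p 0.0127), -1.63 ± 0.37 in the homodimer (0.00709) and -1.38 ± 0.34 in the TCF3-labelled libraries (0.00515). Without parental library 2 the first 2 became -1.06 (edgeR adjusted p 0.0818) and -1.34 (0.0574). Foxa3, which acts in the later gut and liver, had group means from a parental 3.19 CPM to 5.19 in the homodimer and was not called with all 21 libraries.

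The genes listed as acting with FOXA factors in endoderm did not follow Foxa2 in every line. Of 11 tested, 7 rose and 1 fell in the uninduced monomer libraries, and the counts were the same in the induced one. In the TCF3-labelled libraries 7 rose and 2 fell, while Foxa2 fell. In the homodimer 0 rose and 7 fell, and in the TCF4 and TCF12-labelled libraries 0 rose and 10 fell. Without library 1 labelled TCF12 dimer, 8 rose and 1 fell in the uninduced monomer, 7 rose and 2 fell in the induced one and 0 rose and 9 fell in the homodimer, with the same counts in the other 3. Their median log2 fold changes in this order were 1.83, 1.71, 0.89, -0.77, -1.27 and -1.15, against values between 0.00 and 0.02 for all genes. Cubn, an endocytic receptor of visceral endoderm, rose by 2.48 ± 0.20 in the uninduced line (edgeR adjusted p 2.95e-08), by 2.31 ± 0.19 in the induced monomer (5.84e-08) and by 1.39 ± 0.19 in the TCF3-labelled libraries (1.57e-05). Cer1, a secreted Nodal and BMP antagonist of anterior endoderm, fell in all 6, with a value of -2.20 ± 0.31 in the uninduced line (edgeR adjusted p 3.49e-05) and -4.19 ± 0.38 in the TCF12-labelled libraries (1.24e-07). The summed level of the 12 listed genes was 229.1 to 259.9 CPM in parental libraries, 985.1 to 1272 in the uninduced and 988.5 to 1120 in the induced monomer libraries. It was 136.3 to 171.6 in the homodimer, 424.7 to 661.9 in the TCF3-labelled, 95.97 to 101.6 in the TCF4 and 79.22 to 103.5 in the TCF12-labelled libraries. None of the 12 was at 0 in a group. The share of endoderm cells in these samples was not measured, and its part in the values of Foxa2 was not tested.

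**Figure D3:**
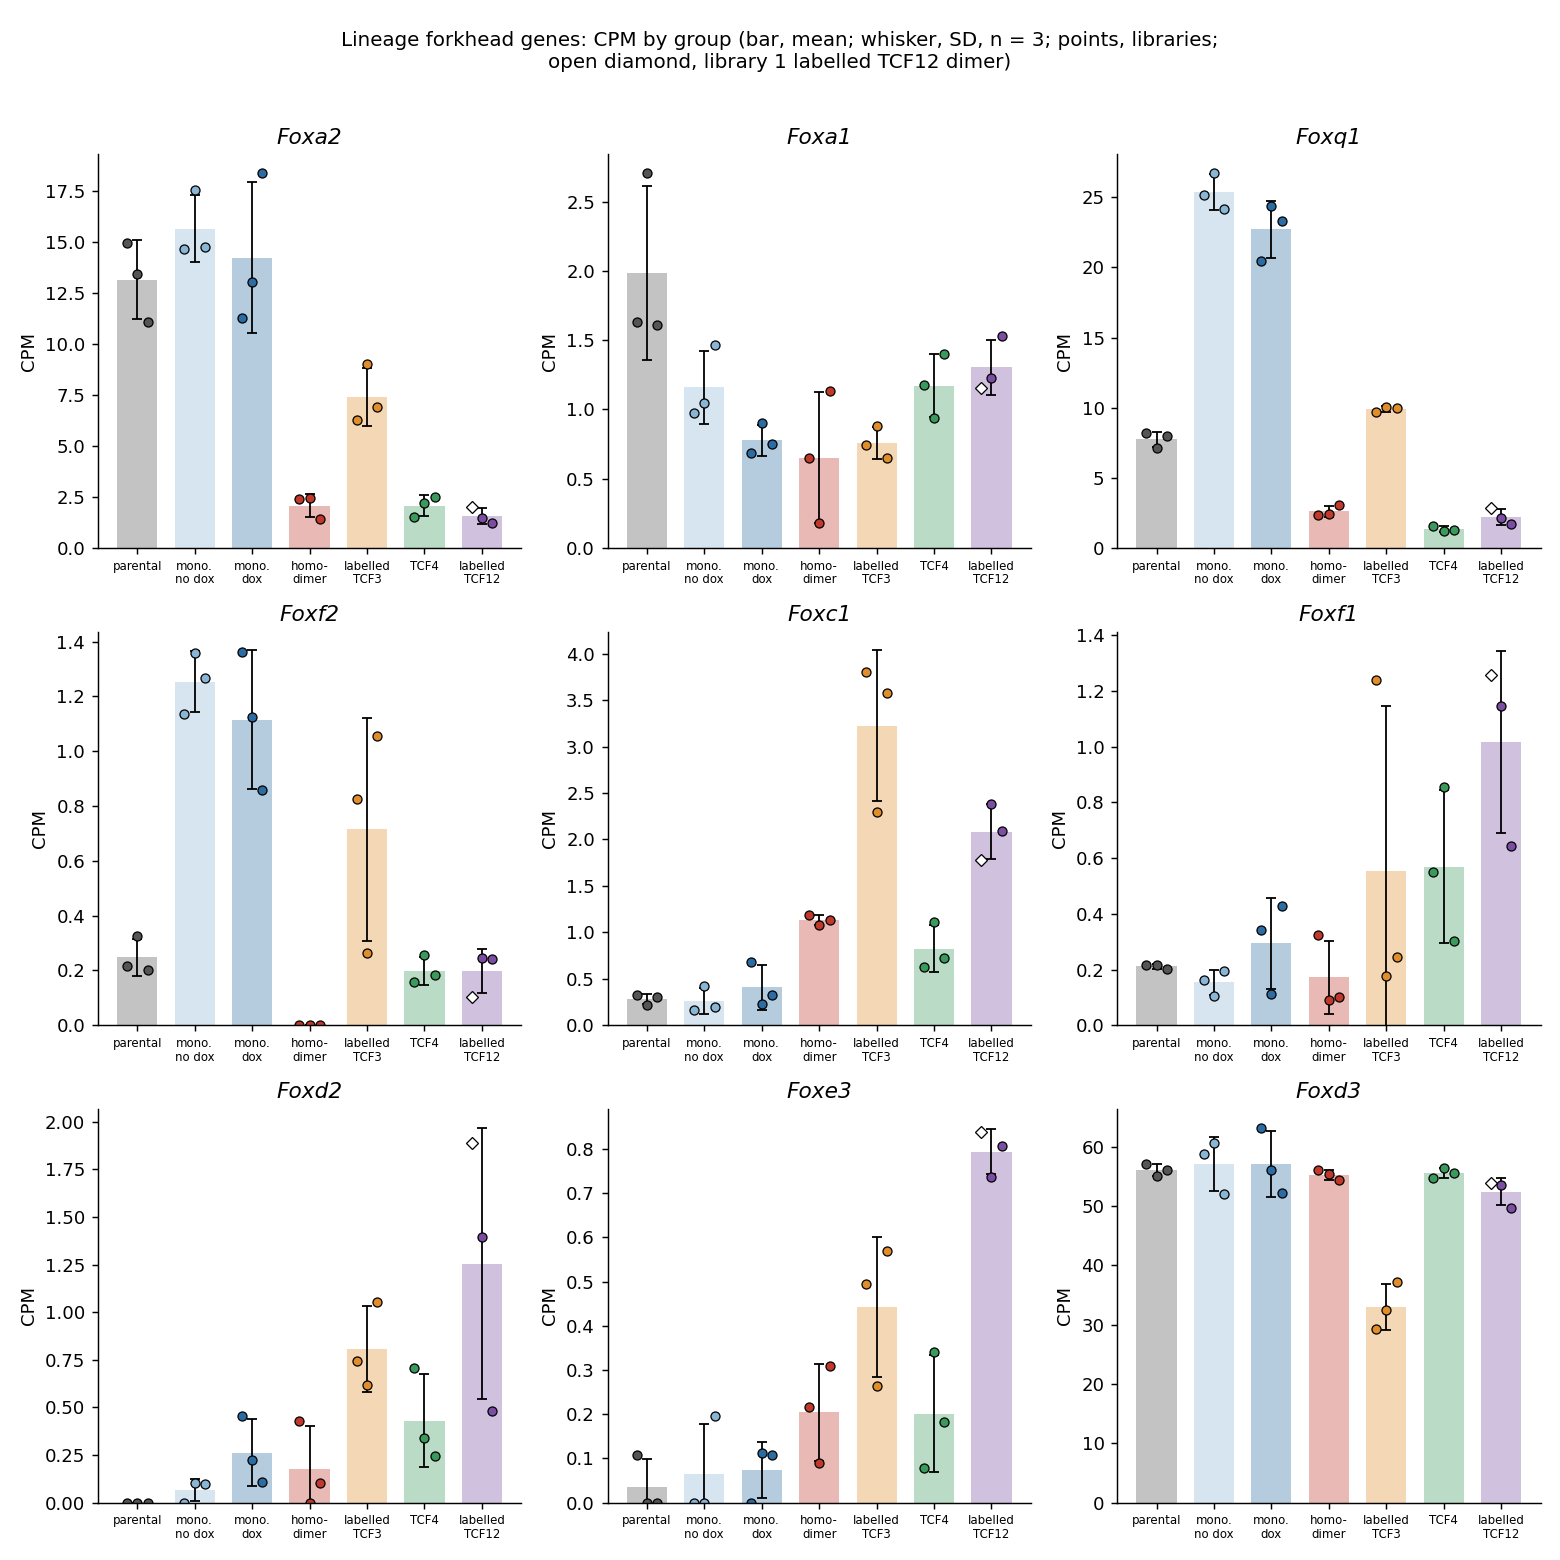
CPM of 9 forkhead genes of lineage in each group; bars are means, whiskers SD (n = 3), points are libraries and the open diamond is library 1 labelled TCF12 dimer. Foxa2 is low in the 4 dimer groups, Foxq1 and Foxf2 are high in both monomer groups, Foxc1, Foxd2 and Foxe3 are highest in the TCF3-labelled or TCF12-labelled libraries, and the 3 TCF3-labelled libraries are the lowest for Foxd3.

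The 3 neighbours on chromosome 13 moved differently. Foxq1, studied mostly in epithelia and tumour cells, was high in the monomer line with or without doxycycline and low in 3 dimer groups. It was at 8.16, 7.15 and 7.96 CPM in parental libraries, 25.2, 26.7 and 24.2 in uninduced and 20.5, 24.4 and 23.3 in induced monomer libraries. It was at 2.37, 2.42 and 3.08 CPM in the homodimer, 9.66, 10.0 and 9.99 in the TCF3-labelled, 1.57, 1.20 and 1.28 in the TCF4 and 2.83, 2.13 and 1.69 in the TCF12-labelled libraries. No group overlapped the parental libraries, and the TCF3-labelled ones lay closest above them. Against the parental line the log2 fold change was 1.71 ± 0.12 in the uninduced monomer (edgeR adjusted p 9.25e-09), 1.55 ± 0.12 in the induced monomer (2.55e-08), -1.56 ± 0.15 in the homodimer (9.27e-07), -2.52 ± 0.16 in the TCF4 (2.57e-09) and -1.83 ± 0.16 in the TCF12-labelled libraries (6.45e-08). The TCF3-labelled value, 0.35 ± 0.13 (edgeR adjusted p 0.0458), lost its call in 16 of 21 fits that left out 1 library and with DESeq2. Against the induced monomer, Foxq1 fell by 3.11 ± 0.14 in the homodimer (edgeR adjusted p 3.01e-11), by 1.20 ± 0.12 in the TCF3-labelled (5.68e-07), by 4.07 ± 0.15 in the TCF4 (7.64e-13) and by 3.37 ± 0.14 in the TCF12-labelled libraries (5.84e-12), which had -3.56 without library 1. Among the E-protein dimers it had the smallest p of the 28 genes (edgeR adjusted p 2.19e-10). The exons of Foxq1 overlap those of A530084C06Rik on the other strand, whose counts summed to 11 over all libraries, and the strand setting of the counting is not given in the sources used here.

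Foxf2, a factor of gut mesenchyme and limb and palate tissue, was scarce, so counts are given. The parental libraries had 2, 3 and 2 counts, the uninduced monomer 7, 13 and 13 and the induced monomer 12, 10 and 8. The homodimer had 0 in all 3 libraries, the TCF3-labelled 10, 3 and 13, the TCF4 2, 3 and 3 and the TCF12-labelled 1, 3 and 3. The monomer libraries were highest by CPM save that the TCF3-labelled ones ranged from 0.264 to 1.06 CPM and reached into them. The value was 5.14 times the parental one in the uninduced monomer (95% exact interval of the count ratio 2.24 to 13.8; log2 fold change 2.31 ± 0.45, edgeR adjusted p 0.00138) and 4.50 times in the induced monomer (1.94 to 12.1; 2.12 ± 0.46, 0.00292). In the homodimer it was at least 3.72-fold lower than in the induced monomer, taking 3 counts per library as the floor (edgeR adjusted p 2.68e-05), and against the parental line both were at or under that floor (edgeR adjusted p 0.022, lost with DESeq2 and in 4 of 21 fits without 1 library). It fell against the induced monomer by 2.44 ± 0.44 in the TCF4 (edgeR adjusted p 0.000462) and by 2.38 ± 0.46 in the TCF12-labelled libraries (0.00067). The TCF3-labelled rise against the parental line, 1.51 ± 0.48 (edgeR adjusted p 0.0261), overlapped it and was lost with DESeq2. The E-protein dimers together exceeded the homodimer (edgeR adjusted p 0.00326), with 26, 8 and 7 counts per group against 0, and differed among themselves (0.00888).

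Foxc1, which with Foxc2 patterns paraxial mesoderm, vessels and the eye, rose in all 4 dimer groups. The libraries had 3, 2 and 3 counts in parental libraries, 1, 4 and 2 in uninduced and 6, 2 and 3 in induced monomer libraries. The homodimer had 11, 12 and 11, the TCF3-labelled 46, 26 and 44, the TCF4 8, 13 and 12 and the TCF12-labelled 17, 29 and 26. By CPM the TCF3-labelled libraries (3.80, 2.29 and 3.57) and the TCF12-labelled ones (1.78, 2.38 and 2.10) were above all others. Against the parental line Foxc1 was 11.5 times higher in the TCF3-labelled (95% exact interval 5.64 to 27.3; log2 fold change 3.46 ± 0.35, edgeR adjusted p 3.59e-07), 7.47 times in the TCF12-labelled (3.60 to 17.96; 2.85 ± 0.37, 1.46e-05), 3.99 times in the homodimer (1.81 to 9.99; 1.96 ± 0.43, 0.00503) and 2.86 times in the TCF4 libraries (1.29 to 7.16; 1.48 ± 0.44, 0.0317). The TCF4 call was lost with DESeq2 and in 4 of 21 fits without 1 library, those being parental 1, 2 or 3 and TCF4 dimer 2. Against the induced monomer it rose by 2.95 ± 0.33 in the TCF3-labelled (edgeR adjusted p 2.54e-06), 2.33 ± 0.35 in the TCF12-labelled (4.14e-05) and 1.44 ± 0.40 in the homodimer (0.0148), the last lost without induced monomer library 2 (adjusted p 0.1) or 3 (0.0692). The E-protein dimers differed among themselves (edgeR adjusted p 6.85e-05).

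Foxf1, needed in extraembryonic and lateral mesoderm, was also scarce. It had 2, 2 and 2 counts in the parental libraries, a total of 4 in uninduced monomer, 8 in induced monomer and 5 in homodimer libraries. The TCF3-labelled libraries had 15, 2 and 3 counts, the TCF4 7, 10 and 5 and the TCF12-labelled 12, 14 and 8. It was called in the TCF12-labelled libraries alone, where it rose 4.70 times over the parental line (95% exact interval 1.95 to 13.7; log2 fold change 2.18 ± 0.66, edgeR adjusted p 0.0208) and by 1.72 ± 0.62 over the induced monomer (0.0405). The latter was lost with DESeq2 and in 6 of 21 fits without 1 library, among them TCF12-labelled library 1 (adjusted p 0.0509), and the former without any 1 of the 3 parental libraries. No difference among the E-protein dimers was called. Its neighbour Foxc2 did not pass the filter; it had 6, 6 and 7 counts in the TCF3-labelled libraries and at most 4 in any other library. Foxl1 reached 0.325 CPM at most.

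Foxd2, a factor of kidney and head mesenchyme, had 0 counts in all 3 parental libraries. It had 0, 1 and 1 counts in uninduced and 4, 2 and 1 in induced monomer libraries, and 4, 0 and 1 in the homodimer. The TCF3-labelled libraries had 9, 7 and 13 counts, the TCF4 9, 4 and 4 and the TCF12-labelled 18, 17 and 6. With the floor of 3 counts per library it was at least 2.53-fold higher than in parental libraries in the TCF3-labelled (edgeR adjusted p 0.00258), at least 1.35-fold in the TCF4 (0.0368) and at least 3.95-fold in the TCF12-labelled libraries (0.000833). The TCF4 call was lost without any 1 of the parental libraries or TCF4 dimer library 1 or 2. Relative to the induced monomer it rose in the TCF12-labelled libraries by 2.18 ± 0.66 (edgeR adjusted p 0.0182), and by 1.81 without TCF12-labelled library 1 (0.0273). That call was lost without induced monomer library 2 (edgeR adjusted p 0.0587) or 3 (0.082). Its neighbour Foxe3, a lens factor, did not pass the filter. It had 8, 9 and 10 counts in the TCF12-labelled and 6, 3 and 7 in the TCF3-labelled libraries against 1, 0 and 0 in the parental ones.

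The mesoderm genes listed as found with FOXF and FOXC factors were called most often in the TCF3-labelled and TCF12-labelled libraries. Of 10 tested, 9 rose in the TCF3-labelled and 8 in the TCF12-labelled libraries against the parental line, 4 in the TCF4 libraries and 3 in each monomer group, with 0 that fell, while in the homodimer 1 rose and 2 fell. With TCF12-labelled library 1 left out, 7 rose and 1 fell in the TCF4 libraries and 2 rose and 2 fell in the homodimer, with the same counts in the other 4. The median log2 fold changes were 2.12, 1.92, 0.76, 0.10 (uninduced), -0.23 (induced) and 0.26 (homodimer). Hand1 and Hand2, bHLH factors of heart and extraembryonic mesoderm, rose by 4.84 ± 0.55 (edgeR adjusted p 2.75e-06) and 4.87 ± 0.71 (7.81e-05) in the TCF12-labelled libraries and by 3.62 ± 0.61 (0.000165) and 4.28 ± 0.76 (0.000392) in the TCF3-labelled ones. Isl1, of second heart field cells, rose in the TCF3-labelled libraries by 3.60 ± 0.44 (edgeR adjusted p 4.13e-06), and Kdr, a VEGF receptor, by 2.81 ± 0.28 (3.64e-07). The list's summed level was 36.3 to 39.5 CPM in parental libraries, 98.6 to 121 in the uninduced and 97.1 to 108 in the induced monomer libraries, 47.6 to 51.2 in the homodimer, 120 to 136 in the TCF3-labelled, 47.4 to 61.8 in the TCF4 and 75.4 to 111 in the TCF12-labelled libraries. Msgn1 was at 0 in all groups and Hand2 in the uninduced monomer libraries. Of 7 tested genes of smooth muscle and fibroblasts, 5 rose and 1 fell in the TCF3-labelled and 5 rose and 0 fell in the TCF12-labelled libraries, with summed levels of 87.4 to 107.6 and 84.97 to 91.9 CPM against 42.2 to 49.4 in parental libraries. Without library 1 the latter count was 5 and 1. The part of mesenchymal cells in the values of Foxc1 and Foxd2 was not tested. Of the 10 tested hedgehog pathway genes, upstream of some FOXF and FOXC genes in textbook accounts, 4 rose and 2 fell in the TCF3-labelled and 1 rose and 3 fell in the TCF12-labelled libraries. Without library 1 the TCF12-labelled count was 4 that rose and 4 that fell, and the TCF3-labelled count was the same. With library 1 included, Hhip, an inhibitor of hedgehog ligands, rose by 4.04 ± 0.48 (edgeR adjusted p 3.32e-06) and 3.53 ± 0.51 (4.21e-05).

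Foxd3, which maintains pluripotent epiblast and later marks neural crest, fell in the TCF3-labelled libraries. It was at 57.2, 55.1 and 56.1 CPM in parental libraries, 58.8, 60.6 and 52.0 in uninduced and 63.2, 56.1 and 52.2 in induced monomer libraries. It was at 56.0, 55.4 and 54.4 CPM in the homodimer, 54.7, 56.4 and 55.5 in the TCF4 and 53.9, 53.6 and 49.7 in the TCF12-labelled libraries, but at 29.3, 32.5 and 37.1 in the TCF3-labelled ones. These 3 libraries lay below all other 18. The log2 fold change was -0.77 ± 0.09 against the parental line (edgeR adjusted p 1.98e-06) and -0.79 ± 0.09 against the induced monomer (2.74e-06), and the E-protein dimers differed among themselves (8.21e-06). Their mean was below the homodimer by -0.27 ± 0.07 (edgeR adjusted p 0.0116). Of 8 tested neural crest genes, 5 rose and 0 fell against the parental line in the TCF3-labelled and in the TCF4 libraries, and 7 rose and 0 fell in the TCF12-labelled ones, or 6 and 0 without library 1. In the TCF3-labelled libraries Snai2 rose by 5.35 ± 0.46 (edgeR adjusted p 5.12e-08), Pax3 by 3.99 ± 0.41 (5.47e-07) and Sox9 by 3.47 ± 0.25 (6.08e-09). Among 10 epiblast and pluripotency genes, 2 rose and 5 fell in the TCF3-labelled libraries (3 and 6 without TCF12-labelled library 1). Their summed level there was 2310 to 2628 CPM against 4400 to 4530 in parental libraries. It was 2733 to 3117 in the TCF12-labelled, 3346 to 3433 in the TCF4 and 3441 to 3488.5 in the homodimer libraries. The induced monomer had 3506 to 3757 and the uninduced 4192 to 4270. Dnmt3b, 1 of the 10, alone ran from 859 to 2699 CPM over all libraries. The part of a change in cell state in the fall of Foxd3 was not tested.

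The FOXO genes were led by Foxo4, on the X chromosome, which was the only tested forkhead gene called lower than in parental libraries in all 5 induced lines and the uninduced one. When library 1 labelled TCF12 dimer was left out, Foxo1 and Foxb1 were also called lower in all 6. It was at 133, 133 and 136 CPM in the parental libraries, 94.4, 97.9 and 100.0 in uninduced and 92.7, 93.4 and 102 in induced monomer libraries. The homodimer had 99.9, 108 and 98.8, the TCF3-labelled libraries 69.6, 82.8 and 79.4, the TCF4 102, 103 and 107 and the TCF12-labelled 75.9, 92.3 and 101. All 3 parental libraries lay above the other 18. The log2 fold change was -0.46 ± 0.09 in the uninduced monomer (edgeR adjusted p 0.000844), -0.48 ± 0.09 in the induced monomer (0.000514), -0.39 ± 0.09 in the homodimer (0.00598), -0.79 ± 0.09 in the TCF3-labelled (1.23e-06), -0.36 ± 0.09 in the TCF4 (0.00799) and -0.58 ± 0.09 in the TCF12-labelled libraries (7.23e-05), the last -0.47 without library 1. It was also lower in the TCF3-labelled libraries than in the induced monomer, by -0.32 ± 0.09 (edgeR adjusted p 0.0135). All 6 comparisons share the parental libraries, so a level particular to that line cannot be told apart from a fall in the others.

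Foxo1, the main FOXO target of insulin signalling in many tissues, was lower in 4 induced lines with all libraries in the fit. It was at 57.5, 58.4 and 60.6 CPM in parental libraries, 40.8, 49.6 and 51.9 in uninduced and 45.8, 40.0 and 43.7 in induced monomer libraries. The homodimer had 48.5, 48.1 and 50.8, the TCF3-labelled libraries 32.2, 34.6 and 34.6, the TCF4 44.5, 42.4 and 42.9 and the TCF12-labelled 24.1, 36.0 and 39.2. Again the parental libraries were the highest 3, and the TCF3-labelled and TCF12-labelled ones the lowest. The log2 fold change was -0.45 ± 0.12 in the induced monomer (edgeR adjusted p 0.0139), -0.80 ± 0.12 in the TCF3-labelled (6.67e-05), -0.44 ± 0.12 in the TCF4 (0.0201) and -0.82 ± 0.12 in the TCF12-labelled libraries (7.03e-05; -0.65 without library 1). The TCF4 call was lost in 4 of 21 fits without 1 library and the monomer call in 1, the one without induced monomer library 2. In the TCF12-labelled libraries it was also below the induced monomer, by -0.38 ± 0.13 (edgeR adjusted p 0.0265; 0.0551 without library 1). The mean of the E-protein dimers was below the homodimer by -0.43 ± 0.10 (edgeR adjusted p 0.00536). Foxo3 was called in no comparison of all 21 libraries, with group means from 78.1 CPM in the TCF12-labelled to 100.1 in the parental libraries, and Foxo6 ran from 1.16 CPM in the uninduced monomer to 2.36 in the TCF4 libraries. Foxo6 was 1 of the 2 genes with an unadjusted p under 0.05 on induction of the monomer, the other being Foxi3.

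The list of insulin and AKT regulators and known FOXO targets, 20 genes, was compared with the parental line too. In the uninduced monomer 6 rose and 4 fell, in the induced monomer 5 and 3, in the homodimer 3 and 0, in the TCF3-labelled libraries 6 and 0, in the TCF4 3 and 0 and in the TCF12-labelled 6 and 1. Without library 1 labelled TCF12 dimer these counts were 6 and 7, 7 and 7, 3 and 2, 8 and 2, 7 and 0, and 9 and 0, in the same order. With all libraries the medians lay between -0.07 and 0.13. Ccng2, a cyclin known as a FOXO target, rose by 1.34 ± 0.12 in the TCF3-labelled (edgeR adjusted p 6.78e-08), 0.90 ± 0.12 in the TCF4 (2.43e-05), 1.15 ± 0.12 in the TCF12-labelled (7.04e-07) and 0.65 ± 0.12 in the homodimer libraries (0.00121). Gadd45a, of the stress response, rose by 1.08 ± 0.18 in the TCF3-labelled (edgeR adjusted p 0.000102) and 1.07 ± 0.18 in the induced monomer libraries (0.000211). The insulin receptor pathway genes Irs2, Igf1r and Insr were lower in the induced monomer than in the parental libraries. They fell by 0.78 ± 0.15 (edgeR adjusted p 0.000589), 0.89 ± 0.20 (0.00273) and 0.77 ± 0.16 (0.00166). None of the 3 was called between induced and uninduced monomer libraries (edgeR adjusted p 0.897, 1 and 1).

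**Figure D4:**
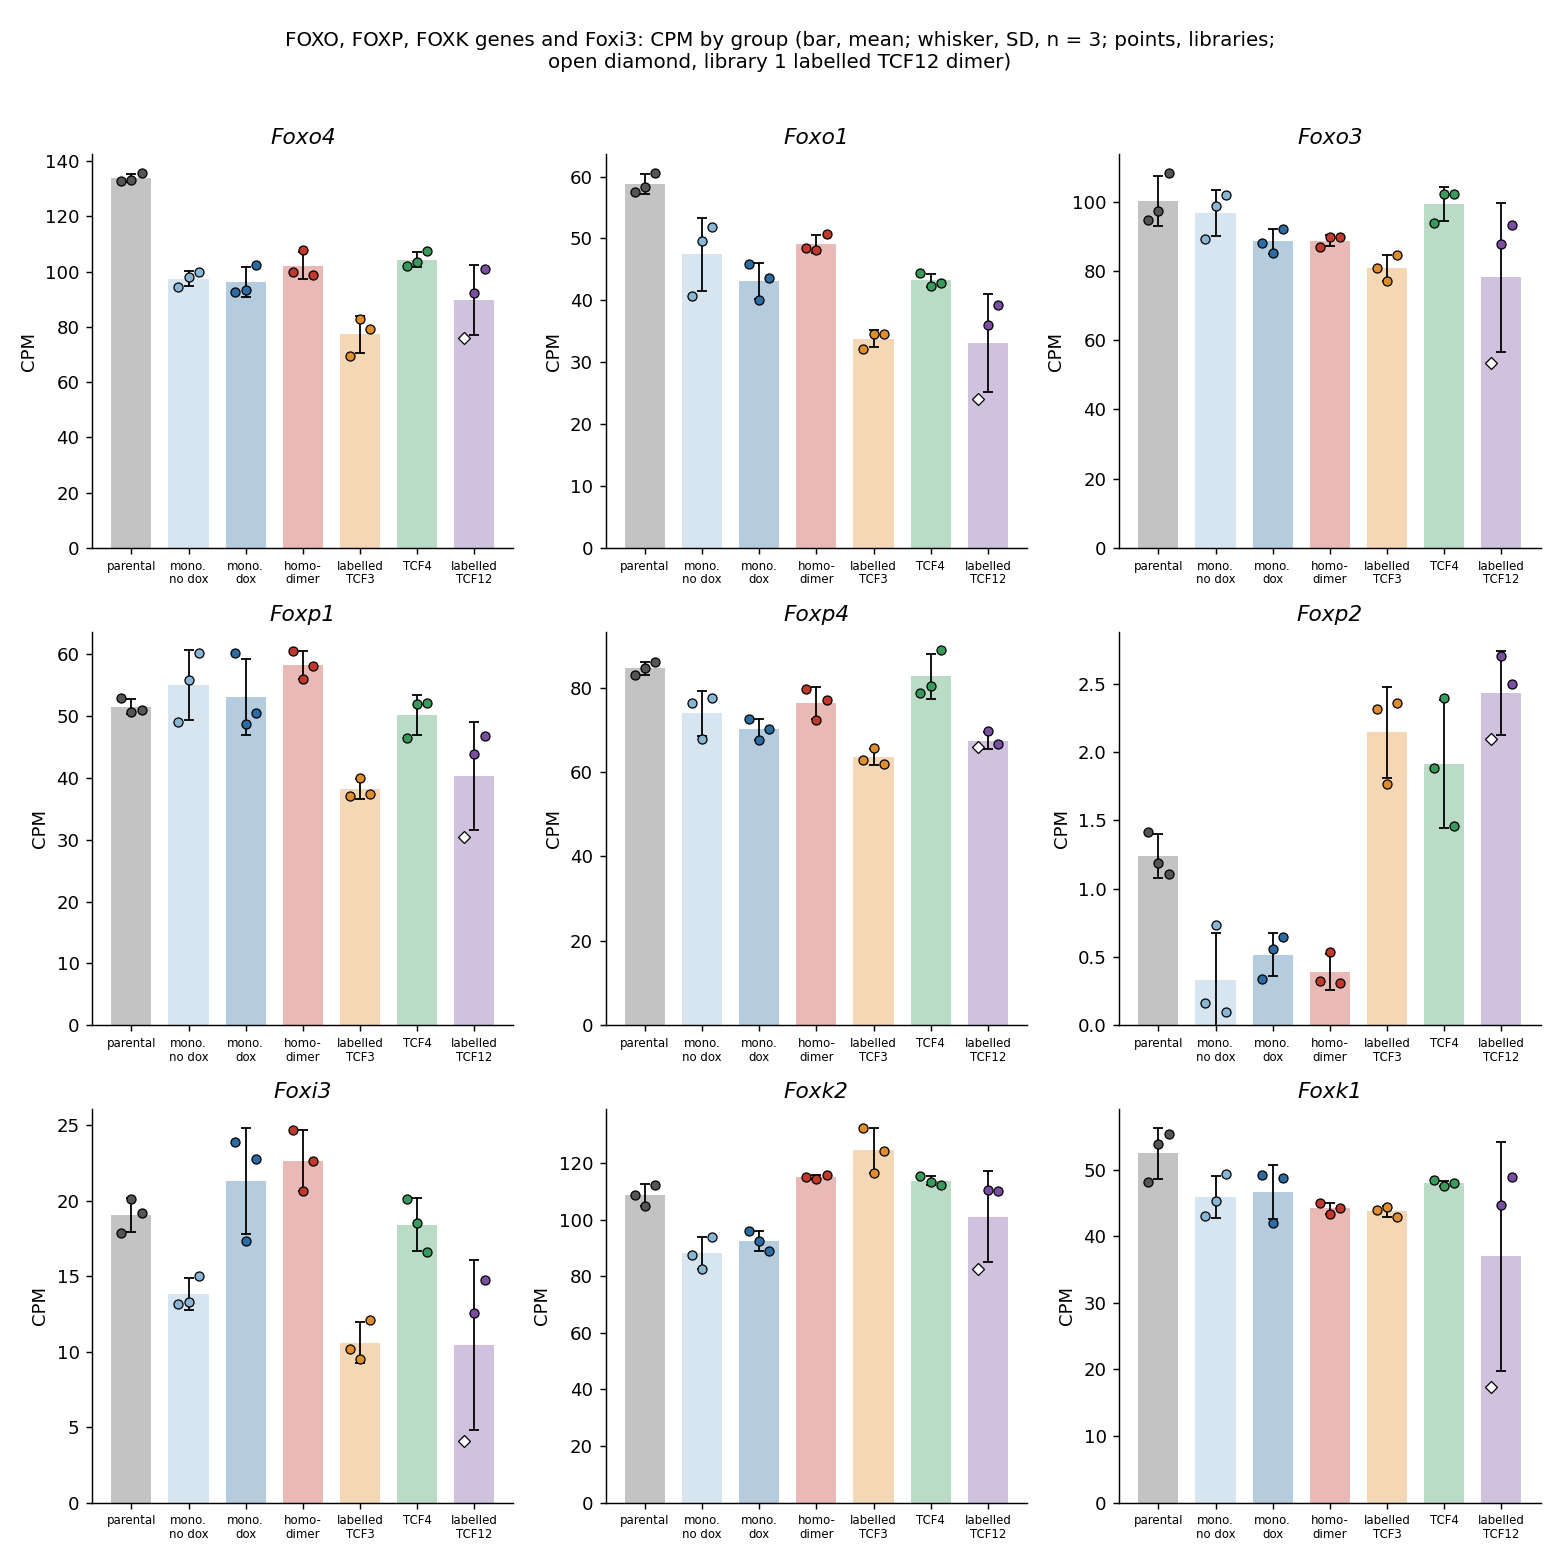
CPM of FOXO, FOXP and FOXK genes and Foxi3 in each group; bars are means, whiskers SD (n = 3), points are libraries and the open diamond is library 1 labelled TCF12 dimer. The 3 parental libraries are the highest for Foxo4 and Foxo1, Foxp2 is at about 2 CPM in the E-protein dimer groups and lower elsewhere, and the open diamond lies far below its fellows for Foxk1, Foxo3 and Foxp1.

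The FOXP genes encode repressors of lung, heart, brain and lymphocyte development. Foxp2, best known from speech circuits of the brain, separated the E-protein dimers from the homodimer and the monomer. It was at 1.42, 1.19 and 1.11 CPM in parental libraries, 0.162, 0.731 and 0.0976 in uninduced and 0.341, 0.562 and 0.644 in induced monomer libraries and 0.323, 0.538 and 0.308 in the homodimer. It was at 2.31, 1.76 and 2.36 CPM in the TCF3-labelled, 1.88, 2.39 and 1.46 in the TCF4 and 2.10, 2.70 and 2.50 in the TCF12-labelled libraries. All 9 E-protein dimer libraries lay above all parental ones, and all parental ones above the monomer and homodimer. Their mean exceeded the homodimer by 2.40 ± 0.33 (edgeR adjusted p 4.46e-05). Relative to the induced monomer Foxp2 rose by 2.03 ± 0.36 in the TCF3-labelled (edgeR adjusted p 0.00046), 1.83 ± 0.37 in the TCF4 (0.000863) and 2.22 ± 0.36 in the TCF12-labelled libraries (9.18e-05; 2.31 without library 1). Against the parental line it fell in the uninduced monomer by 1.80 ± 0.46 (edgeR adjusted p 0.00813), in the induced monomer by 1.24 ± 0.42 (0.0419, lost in 9 of 21 fits without 1 library) and in the homodimer by 1.61 ± 0.43 (0.0204, lost in 4), and rose by 0.98 ± 0.30 in the TCF12-labelled libraries (0.0207, lost in 3). Without uninduced monomer library 3 the first of these was -1.28 (edgeR adjusted p 0.0701).

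Foxp4 and Foxp1 were more abundant and moved less. Foxp4 was at 83.1, 84.7 and 86.0 CPM in parental libraries and at 62.9, 65.8 and 62.0 in the TCF3-labelled libraries, a log2 fold change of -0.41 ± 0.07 (edgeR adjusted p 0.000151). It was also lower in the TCF12-labelled libraries (65.9, 69.7 and 66.6 CPM; -0.33 ± 0.07, edgeR adjusted p 0.00182) and in the induced monomer (72.6, 67.7 and 70.3; -0.27 ± 0.07, 0.00864). None of these groups overlapped the parental libraries. It was higher in the TCF4 libraries than in the induced monomer, by 0.24 ± 0.07 (edgeR adjusted p 0.0147, lost in 2 of 21 fits without 1 library). Foxp1, a repressor with roles in heart and lung, was at 52.9, 50.7 and 51.0 CPM in the parental and 37.1, 40.0 and 37.4 in the TCF3-labelled libraries, -0.43 ± 0.12 (edgeR adjusted p 0.012). It had 30.4, 43.9 and 46.8 CPM in the TCF12-labelled ones, whose call (-0.35 ± 0.12, edgeR adjusted p 0.0421) was lost without library 1. Relative to the induced monomer it was lower in the TCF3-labelled (-0.48 ± 0.12, edgeR adjusted p 0.00816) and TCF12-labelled libraries (-0.39 ± 0.12, 0.019). The E-protein dimers were below the homodimer by -0.45 ± 0.10 (edgeR adjusted p 0.00323).

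FOXK factors act in metabolism and autophagy. Foxk2 was lower in the monomer line: 109, 105 and 112 CPM in the parental, 87.6, 82.7 and 93.9 in the uninduced and 95.9, 92.3 and 88.8 in the induced libraries. The call in the uninduced line (-0.30 ± 0.09, edgeR adjusted p 0.0215) was lost in 4 of 21 fits without 1 library, and the induced line was not called. Compared with the induced monomer it was higher in the homodimer (115, 114 and 116 CPM; 0.32 ± 0.09, edgeR adjusted p 0.0162), in the TCF3-labelled (132, 117 and 124; 0.43 ± 0.09, 0.00154) and in the TCF4 libraries (115, 113 and 112; 0.30 ± 0.09, 0.016). No library of these groups overlapped the induced monomer. The TCF4 call was lost in 3 of 21 fits without 1 library, and that of the homodimer without induced monomer library 3 (edgeR adjusted p 0.0598). Foxk1 had group means from 37.0 CPM in the TCF12-labelled to 52.5 in the parental libraries and was not called with all 21 libraries; its TCF12-labelled libraries were at 17.3, 44.7 and 48.9, so the low mean is that of library 1.

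Foxm1, the activator of mitotic genes, was at 90.1, 104 and 104 CPM in parental libraries and had group means from 84.7 in the induced monomer to 104.4 in the TCF4 dimer line. That difference was called (0.30 ± 0.09, edgeR adjusted p 0.0229) but was lost in 5 of 21 fits without 1 library. Of 12 known FOXM1 targets, 0 were called in 4 of the 6 comparisons with the parental line, and 1 (Ccnb2, a mitotic cyclin) rose in the TCF3-labelled, by 0.48 ± 0.14 (edgeR adjusted p 0.013), and in the TCF12-labelled libraries, by 0.55 ± 0.14 (0.00625). Leaving out TCF12-labelled library 1, targets were called in 5 of the 6: 1 rose and 1 fell in the induced monomer, 3 and 0 in the homodimer, 1 and 2 in the TCF3-labelled, 2 and 1 in the TCF4 and 1 and 0 in the TCF12-labelled libraries. Compared with the induced monomer the TCF4 libraries had Cdc25b higher by 0.23 ± 0.07 (edgeR adjusted p 0.0151) and Ccnb1 lower by -0.31 ± 0.07 (0.00211), and without that library 4 targets rose and 2 fell there.

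Foxi3, a factor of placodes and pharyngeal ectoderm, was lower in the TCF3-labelled and TCF12-labelled libraries. It was at 17.9, 20.1 and 19.1 CPM in parental libraries, 13.2, 13.3 and 15.0 in uninduced and 23.9, 17.3 and 22.8 in induced monomer libraries, 24.7, 20.6 and 22.6 in the homodimer and 20.1, 18.5 and 16.6 in the TCF4 libraries. The TCF3-labelled libraries had 10.2, 9.52 and 12.1 and the TCF12-labelled 4.09, 12.5 and 14.8 CPM. These 6 were below all parental libraries, and 1 of them far below the rest. The 3 uninduced monomer libraries also lay below all parental ones, a difference not called with all 21 libraries. The log2 fold change against the parental line was -0.84 ± 0.25 in both (edgeR adjusted p 0.0175, lost in 3 of 21 fits without 1 library, and 0.0213, lost in 2), and the TCF12-labelled value was -0.48 without library 1 (0.00432). Compared with the induced monomer the values were -1.01 ± 0.25 (edgeR adjusted p 0.00703) and -0.998 ± 0.25 (0.0051; -0.64 without library 1), and the E-protein dimers lay below the homodimer by -0.82 ± 0.19 (0.00633). Foxi3 was the 1 forkhead gene called on induction of the monomer once library 1 labelled TCF12 dimer was left out, higher by 0.61 ± 0.12 (edgeR adjusted p 0.00107), and the 3 induced libraries lay above the 3 uninduced ones.

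The FOXJ and FOXN genes include Foxj1, the master gene of motile cilia, and Foxn4, a regulator of retinal and spinal progenitors. Foxj1 was at 2.61, 5.06 and 3.54 CPM in the induced monomer and 2.20, 1.72 and 2.10 in the TCF12-labelled libraries (-0.90 ± 0.28, edgeR adjusted p 0.019; without induced monomer library 2, -0.62 and 0.135, and without TCF12-labelled library 2, 0.0552), and its highest group mean was 4.44 in the TCF4 dimer line. Of the 10 listed cilia genes 4 were tested, and between 0 and 2 of them were called in each comparison with the parental line, or 0 to 3 without TCF12-labelled library 1. Foxn4 was at 2.61, 2.17 and 2.92 CPM in the parental, 2.91, 3.68 and 2.47 in the homodimer and 1.05, 0.819 and 1.53 in the TCF12-labelled libraries. It fell in the latter by 1.17 ± 0.33 (edgeR adjusted p 0.0133; 0.0589 without parental library 3), and the E-protein dimers were below the homodimer by -1.04 ± 0.24 (0.00487; without homodimer library 2, -0.88 and 0.0703). Foxn2 had group means from 33.9 CPM in the TCF12-labelled to 48.9 in the uninduced monomer libraries. Its library 1 labelled TCF12 dimer was at 19.2 CPM against 41.1 and 41.4, so the call against the induced monomer (-0.52 ± 0.17, edgeR adjusted p 0.026) became -0.24 without it (0.00684). Foxn3 ran from 13.2 to 20.1, Foxj2 from 8.74 to 10.6 and Foxj3 from 39.1 to 44.1 CPM, and none of the 3 was called with all 21 libraries.

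The FOXR genes were low. Foxr2 was at 5.33, 4.55 and 5.54 CPM in the parental and 2.48, 2.29 and 2.19 in the TCF3-labelled libraries, with a log2 fold change of -1.15 ± 0.24 (edgeR adjusted p 0.00146). The fall against the induced monomer (-0.73 ± 0.26, edgeR adjusted p 0.0488) was lost in 18 of 21 fits without 1 library, that of the E-protein dimers against the homodimer (-0.60 ± 0.19, 0.0404) in 8, and the call in the TCF12-labelled libraries against the parental line (-0.69 ± 0.24, 0.0356) was lost without library 1. Foxr1 had 0.762, 0.541 and 0.202 CPM in the parental and 0.909, 2.14 and 1.50 in the induced monomer libraries. The 14 and 41 counts give a ratio of 3.07 (95% exact interval 1.64 to 6.10; log2 fold change 1.59 ± 0.54, edgeR adjusted p 0.0452), a call lost in 10 of 21 fits without 1 library. The ratio to the parental counts was 2.49 (1.29 to 5.06) in the uninduced monomer and 2.28 (1.19 to 4.60) in the homodimer. It was 1.36 in the TCF3-labelled, 1.83 in the TCF4 and 1.54 in the TCF12-labelled libraries. None of these other groups was called with all 21 libraries.

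Of the 15 genes removed by the filter, Foxi1 had no count in any library, which allows at most 3 counts per library. The highest values in any library were 1.71 CPM for Foxb1, 0.838 for Foxe3, 0.569 for Foxc2, 0.537 for Foxd1, 0.524 for Foxe1 and 0.495 for Foxd4. They were 0.325 for Foxl1, 0.293 for Foxl2, 0.264 for Foxp3, 0.217 for Foxi2, 0.215 for Foxb2, 0.114 for Foxn1 and 0.109 for Foxs1, all at or near the floor. With no filter, edgeR on 28086 genes called 3 of the 15 in at least 1 comparison. Foxb1, of the hypothalamus and somitic region, was lower than in parental libraries (0.653, 1.30 and 1.71 CPM) in the uninduced monomer (edgeR adjusted p 0.000151), the induced monomer (0.000291), the homodimer (0.0015), the TCF3-labelled (0.00353) and the TCF12-labelled libraries (0.00025). Foxe3 was higher in the TCF3-labelled (edgeR adjusted p 0.0164) and TCF12-labelled libraries (0.000492), and Foxc2 in the TCF3-labelled ones (0.00665). Foxe3 was also higher in the TCF12-labelled libraries than in the induced monomer (edgeR adjusted p 0.00172), where 16.9% of all genes were called. In that fit 8.97%, 8.71%, 4.07%, 12.6% and 13.8% of all genes were called in the uninduced monomer, the induced monomer, the homodimer, the TCF3-labelled and the TCF12-labelled libraries, in this order.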

How the data were processed

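RNA was measured in 21 libraries of day 3 embryoid bodies, 7 groups of 3, made with the Illumina TruSeq mRNA kit per the labels' protocols. The authors deposited 1 table of raw read counts per gene and library. FastQC, TopHat2, HTSeq and the build mm10 (GRCm38) are named in the submitters' processing notes; versions, annotation and strand setting are not given in the sources used here. In 18 tables, 25 gene symbols had been turned into dates, while the TCF12-labelled tables kept them, so a difference in handling cannot be told apart from that group; the tables were joined by position.

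Counts were tested in R 4.3.3 with edgeR 4.0.16 (TMM, filterByExpr with a minimum count of 10 and total of 15, quasi-likelihood test, 1 mean per group, Benjamini-Hochberg over 14311 genes). CPM is the count scaled by the library total times its TMM factor, and a floor of 3 counts is 0.182 to 0.487 CPM. Intervals (95%, exact) and floors cover counting error only. Alternatives were RLE size factors, no filter, a filter of 1 CPM in 3 samples, a replicate block, DESeq2 1.42.0, only the groups compared, and leaving out each library. The procedure was tested on simulated data with the same spread in all libraries. They held no divergent library, so they cannot show how the procedure behaves where such a library is present. In each comparison up to 5 called forkhead genes per direction with the largest fold change are given in full, and of the other lists up to 4 genes. The values of 1 gene removed by the filter are not reported here. The rule for members uses gene names alone, but the family and all lists were chosen with earlier results of these data known.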

Additional observations from a re-analysis of the deposited data

Results flagged for a closer look

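Against the parental line, 3 forkhead genes moved one way in the induced monomer libraries and the other way in a dimer group, with the difference itself tested by edgeR. For Foxf2 the homodimer and monomer values were -4.45 and 2.12, a difference of -6.57 (adjusted p 2.68e-05), which depends on the homodimer's 0 counts. Its homodimer call against the parental line was lost with DESeq2 and in 4 of 21 fits without 1 library. For Foxq1 the monomer value was 1.55, and the difference was -3.11 for the homodimer (edgeR adjusted p 3.01e-11), -4.07 for the TCF4 dimer (7.64e-13) and -3.37 for the TCF12-labelled libraries (5.84e-12). For Foxp2 the TCF12-labelled and monomer values were 0.98 and -1.24, a difference of 2.22 (edgeR adjusted p 9.18e-05). Its monomer call against the parental line was lost with DESeq2 and in 9 of 21 fits without 1 library. The TCF12-labelled call was lost in 3 of them. The lines differ in Twist1 RNA level as well as in construct, and the part of that level was not tested.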

How the results depend on the processing

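No value given by an alternative fit changed sign: 1959 single-gene values stayed called and 158 did not. Of 79 named calls, RLE size factors lost 1, no filter 9, a replicate block 4, DESeq2 6 and a filter of 1 CPM in 3 samples 0. Fitting only the groups compared gave a value for 63 of the 79, of which 55 stayed called and 8 were lost. The rest had no value in that fit and are in neither total. Fitting only the groups compared moved the number of forkhead genes called to 11 for the uninduced monomer, 11 for the homodimer and 3 for the TCF12-labelled libraries against the parental line, to 1 for induction of the monomer, to 8 for the homodimer and 4 for the TCF12-labelled libraries against the monomer, to 5 for the E-protein dimers against the homodimer and to 4 among them. Leaving out each library gave, against the parental line, 4 to 14 (uninduced monomer), 5 to 15 (induced monomer), 4 to 12 (homodimer), 10 to 20 (TCF3-labelled), 3 to 9 (TCF4) and 7 to 18 (TCF12-labelled). It gave 0 to 1 for induction, 3 to 9, 8 to 14, 5 to 10 and 8 to 14 for the homodimer, TCF3-labelled, TCF4 and TCF12-labelled libraries against the monomer, 6 to 11 against the homodimer and 7 to 17 among the E-protein dimers. The highest count came without TCF12-labelled library 1 in 9 of these 13 alone, and the cause was not tested. Except for the fit without that library, the share of all genes called in these fits is not given here. A shift of a count with the fit thus cannot be told apart from a shift over all genes.

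Whether the replicate numbers pair the samples is not settled. Deviations of same-numbered libraries from their group mean had a mean correlation of 0.02141 over 63 pairs, which ran from -0.2215 to 0.3441. The mean over 126 others was -0.01024. Deviations within a group sum to 0, so this second mean follows largely from the first and is no separate reference. In the fit with a replicate block, the counts in the same order were 5, 7, 7, 12, 6 and 14, then 0, then 5, 10, 7 and 12, then 9 and 11. The share of all genes called in that fit is not given here either. Genes with few counts (Foxf2, Foxf1, Foxd2, Foxe3, Foxc2) are limited by depth.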

Other observations

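Foxd2os, an RNA gene named as the opposite strand of Foxd2, falls outside the rule and was chosen after its values were seen. It was at 0, 0.108 and 0.605 CPM in parental libraries, 2.23, 1.15 and 2.03 in the TCF3-labelled, 0.864, 0.683 and 0.972 in the TCF4 and 3.04, 1.07 and 1.37 in the TCF12-labelled libraries. It rose over the parental line by 2.82 ± 0.66 in the TCF3-labelled (edgeR adjusted p 0.00299) and by 2.78 ± 0.67 in the TCF12-labelled libraries (0.00482; 2.25 and 0.00628 without library 1), and was not called in the TCF4 dimer line (1.74, 0.149; 0.0333 without TCF12-labelled library 1). The annotation lists 0 genes whose exons overlap those of Foxd2.

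Genes of the primitive streak were lower than in the parental line in all 6 comparisons, with 8 of 8 tested genes called, also without TCF12-labelled library 1. Their summed level was 221 to 264 CPM in the parental libraries and 17.2 to 43.0 in all others, the uninduced monomer included. Of 7 tested trophoblast genes, 0 to 2 rose and 1 to 3 fell (0 to 2 and 2 to 4 without that library), and Eomes, which is in both lists, was lower in all 6.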
